A study of Mus musculus with 8 samples.

Results

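The genes for integrin chains and laminin chains were examined in neonatal cardiomyocytes (NCMs) of mice exposed in utero to filtered air (FA) or diesel exhaust (DE). Members were all genes whose symbol is Itga or Itgb followed by a digit or by d, e, l, m, v or x alone, or Lama, Lamb or Lamc followed by a digit only, without the integrin-binding protein genes Itgb1bp and Itgb3bp. This rule found 38 of 27179 counted genes, of which 27 code for integrin chains (18 alpha and 9 beta) and 11 for laminin chains. RNA-seq was performed on NCMs of male C57Bl/6J neonates at postnatal day 0, with 1 heart for each library, and dams breathed FA or DE from the day of the vaginal plug until late gestation. There were 4 FA libraries, numbered 2, 3, 4 and 6, and 4 DE libraries, numbered 1, 3, 5 and 7. Hearts had been trimmed of vessels and atria and dissociated with a collagenase blend, and cells that attached to plastic in the presence of the antimitotic agent Ara-C were left behind. The libraries therefore represent a cell suspension enriched in cardiomyocytes and not a pure cell type. Which litters the pups came from is not given in the sources used here, so p-values measure the spread between these hearts.

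Integrins are cell surface receptors built from 1 alpha and 1 beta chain. They tie the extracellular matrix, or partner molecules on other cells, to the actin cytoskeleton and to signalling kinases inside the cell. Laminins are trimers of an alpha, a beta and a gamma chain, and together with type IV collagen, nidogen and perlecan they form the basement membrane that surrounds each cardiomyocyte and underlies the endothelium. In heart muscle the main laminin receptors are integrins with the beta chain Itgb1 and the alpha chain Itga6 or Itga7, and the dystroglycan complex, while fibronectin is bound mainly by the dimer of Itga5 and Itgb1. A separate branch of the family, built on the beta chain Itgb2, occurs on leukocytes only.

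Total counts of a library ran from 17943024 to 39839737. Values are CPM (normalized counts for each 1e+06 counts of a library), with per-library values in the order FA 2, 3, 4 and 6 and then DE 1, 3, 5 and 7, and errors are SD with n = 4 in each group. A gene was called when edgeR's quasi-likelihood test gave an adjusted p of 0.05 or less and the difference was 25% or more. Cardiomyocyte markers dominated the marker genes, with a summed level of 59939 to 67284 CPM in FA and 47881 to 56924 CPM in DE. Without Myh6, which codes for the alpha heavy chain of cardiac myosin and had 23299 ± 1521 CPM in FA and 14622 ± 685 CPM in DE, these sums overlapped (36821 to 43553 CPM in FA and 33145 to 41495 CPM in DE), and the median log2 difference of the 10 genes was -0.15. Fibroblast markers summed to 1555 to 2501 CPM in FA and 2724 to 4688 CPM in DE, endothelial markers to 968 to 1283 and 1048 to 1559 CPM, and smooth muscle and pericyte markers to 1624 to 2192 and 1207 to 1614 CPM. That last sum is mostly Acta2 (1151 ± 277 CPM in FA and 746 ± 132 CPM in DE, edgeR adjusted p = 0.0562). Abcc9 came next (401 ± 70.2 and 298 ± 55.8 CPM, edgeR adjusted p = 0.120). Of the 9 genes, none of them called, 6 had the higher value in DE (median 0.13 on the log2 scale). By edgeR 2 of the 9 had an unadjusted p below 0.05, both lower in DE. Of the tested markers of erythroid, Schwann and neural crest, and epicardial and mesothelial cells, 6 of 6, 1 of 5 and 3 of 8 were higher in DE, and edgeR called 1 (Slc4a1, log2 fold change 0.95, adjusted p = 0.0422), 0 and 0, beside 1, 3 and 3 at an unadjusted p below 0.05. All FA libraries and DE libraries 1 and 7 carry the prefix 11 in their sample names and DE libraries 3 and 5 the prefix 12, and the meaning of the prefix is not given in the sources used here. With no FA library of prefix 12, prefix and exposure could be separated only among the 6 libraries of prefix 11.

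The integrin and laminin genes summed to 4093 CPM on average in FA NCMs and to 4051 CPM in DE NCMs, and the genes that were called code for 2 integrin alpha chains of leukocytes, Itgax and Itgam, both higher in DE. Of 38 members, 36 passed the filter on low counts and were tested, and 2 of these were called, both higher in DE, while 5.8% of all 14966 tested genes were called (3.58% higher and 2.22% lower in DE). Among the 26 tested integrin genes 2 were called, and among the 10 tested laminin genes 0 were called, with 2 laminin genes at an unadjusted p below 0.05. At that unadjusted level there were 9 of the 36 members, 7 of them higher in DE, beside 25.6% of all tested genes. The log2 fold change, DE over FA, was above 0 for 19 of 36 members, beside 50.5% of all tested genes, with a median of 0.04 beside 0.00. FA and DE libraries were fully separated in CPM for 4 of 36 members (Itgam, Itgax and Lama1 higher in DE, Itga3 lower), and for 14.7% of all tested genes. Of these members, Itgax and Lama1 lay below the filter on low counts in most FA libraries and were tested only because of their DE levels. The share of a library's counts that fell on the members was 0.416%, 0.349%, 0.428% and 0.404% in FA and 0.458%, 0.420%, 0.362% and 0.421% in DE, so that the groups overlapped.

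**Figure D1:**
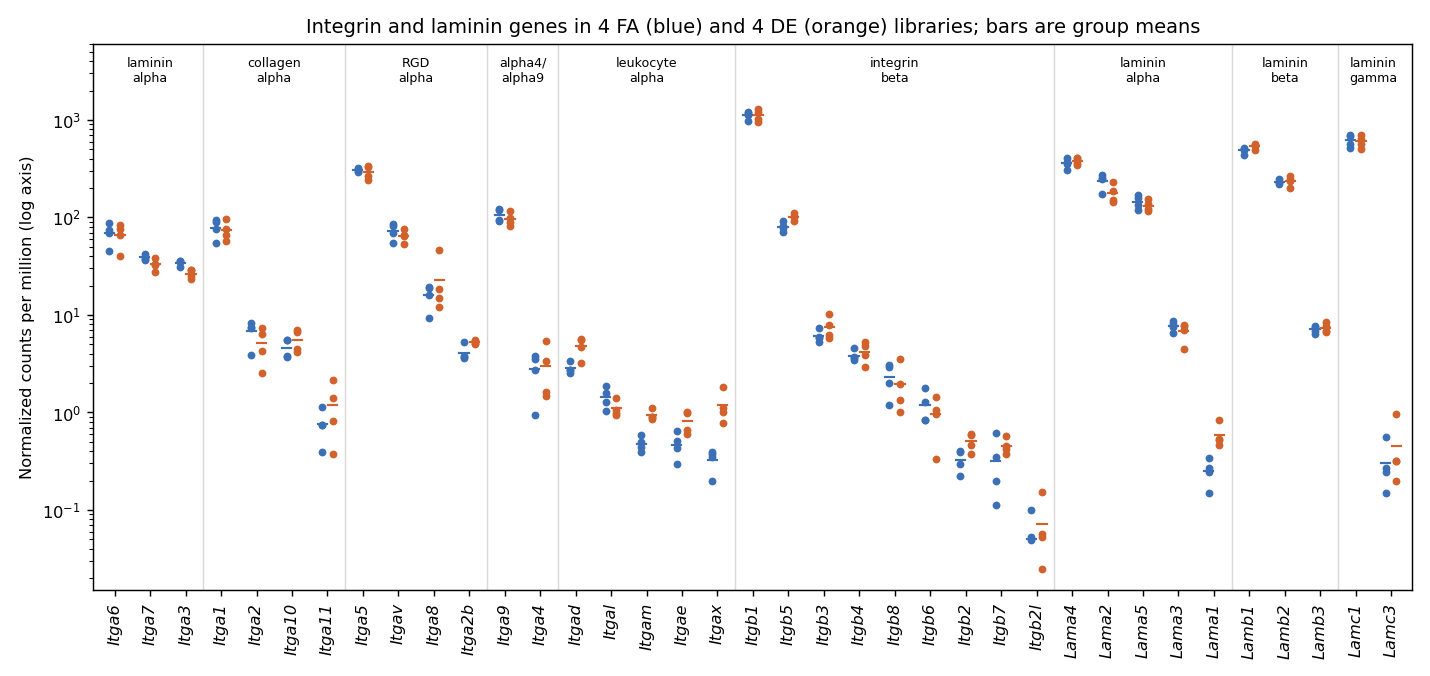
Normalized CPM (log axis) of the integrin and laminin genes reported here, grouped by the role of the chain, with 1 point for each of 4 FA (blue) and 4 DE (orange) libraries and bars at the group means. The library at 0 counts of Itgb2l is not drawn. Levels span from below 0.1 CPM for Itgb2l to 1117 CPM for Itgb1 in FA, and the points of the groups overlap for most genes.

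Itgax and Itgam code for the alpha chains of the complement receptors of myeloid cells, also known as CD11c and CD11b, and stand next to each other on chromosome 7. Itgax lies at chr7:128129526-128150657 and Itgam at chr7:128062640-128118491 of mm10, both on the forward strand, and Itgad follows at chr7:128173933-128205504. Because both neighbouring genes were called in the same direction, the sequences around their RefSeq start sites (250 bases before to 50 after, GRCm38.p6) are shown, counted for Itgax from a start site slightly inside the span given above, with the letters GAGGAA on either strand, the core bound by the myeloid factor PU.1, in capitals.
Itgam, chr7:128062390-128062689: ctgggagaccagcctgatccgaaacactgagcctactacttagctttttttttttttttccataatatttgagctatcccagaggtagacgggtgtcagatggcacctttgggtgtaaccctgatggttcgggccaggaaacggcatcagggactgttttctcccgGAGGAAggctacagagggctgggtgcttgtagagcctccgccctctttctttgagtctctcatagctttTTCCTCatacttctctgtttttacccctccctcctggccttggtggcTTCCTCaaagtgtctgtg
Itgax, chr7:128129300-128129599: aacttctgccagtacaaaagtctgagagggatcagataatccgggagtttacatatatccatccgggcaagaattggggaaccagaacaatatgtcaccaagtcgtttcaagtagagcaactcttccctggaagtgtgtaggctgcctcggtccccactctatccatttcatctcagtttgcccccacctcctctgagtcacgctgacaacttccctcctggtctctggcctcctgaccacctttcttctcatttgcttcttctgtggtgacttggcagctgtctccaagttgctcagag
The Itgam window holds these letters at 3 places, which start at positions -84, -15 and 33 from the start site, and the Itgax window holds none. They occur in 28.3% of all 32851 promoter windows and in those of 15 of the 24 members that have a window, so a match is common. The members were counted by gene, with a match in any window, and the background by window, so these shares have unlike units. GGGCGG, the letters of an Sp1 box, occurred in 35.7% of all windows and in those of 11 of 24 members, and TATAAA in 13.6% and 0 of 24.

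Itgax was the member with the largest difference. Its 4 FA libraries held 14, 7, 7 and 4 counts and its DE libraries 26, 35, 74 and 21. On the CPM scale these were 0.374, 0.349, 0.395 and 0.197 in FA and 0.787, 1.00, 1.85 and 1.12 in DE. Every DE library lay above every FA library, and DE 5 was the highest. Mean CPM rose from 0.329 ± 0.0900 to 1.19 ± 0.459 in DE, which is 1.84 on the log2 scale (SE 0.34, 95% CI 1.08 to 2.60, edgeR adjusted p = 0.0141), or 3.58-fold. It was called in each of the 8 edgeR fits without 1 library, with a log2 fold change of 1.51 to 2.00. Among the libraries of prefix 11 alone the log2 fold change was 1.46 and the edgeR adjusted p 0.0673.

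Itgam had 22, 10, 7 and 9 counts in FA and 30, 31, 45 and 16 in DE. Its CPM values were 0.588, 0.498, 0.395 and 0.443 in FA and 0.908, 0.889, 1.12 and 0.853 in DE, again without overlap. Mean CPM rose from 0.481 ± 0.0830 to 0.943 ± 0.122 in DE, which is 0.94 on the log2 scale (SE 0.23, 95% CI 0.43 to 1.46, edgeR adjusted p = 0.0411), or 1.92-fold. This call stood near the threshold. In edgeR fits without 1 library it remained without DE 1 (adjusted p = 0.0461) and was lost without FA 2, 3, 4 or 6 (adjusted p = 0.0886, 0.0787, 0.135 and 0.0727) and without DE 3, 5 or 7 (0.0949, 0.101 and 0.0544). Within prefix 11 the log2 fold change was 0.83, with an edgeR adjusted p of 0.203. In the GENCODE annotation a predicted gene that is not in the counts, Gm49368, shares 3450 of the 5024 exonic bases of Itgam on the same strand, and how such reads were assigned is not stated.

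Of the other integrin genes of leukocytes given next, Itgal was lower in DE, the other tested ones were higher, and none was called. Itgad, the alpha chain CD11d, had 3.34, 2.74, 2.54 and 2.70 CPM in FA and 5.69, 3.18, 4.66 and 5.54 CPM in DE. All but DE 3 lay above the FA libraries, and the log2 fold change was 0.73 (SE 0.20, edgeR adjusted p = 0.0558). With each library left out in turn it ran from 0.63 to 0.89 and was called in 1 of 8 fits, that without DE 3 (edgeR adjusted p = 0.0300). Over all 17 alternatives it was called in 6, among them the fit within prefix 11 (0.97, edgeR adjusted p = 0.0224), and the adjusted p ran from 0.0156 to 0.264. The last exon of Itgad shares 70 exonic bases with Cox6a2, a heart and muscle cytochrome oxidase subunit on the opposite strand, with 468 ± 97.7 CPM in FA and 490 ± 70.8 CPM in DE. Cox6a2 had a log2 fold change of 0.07 (edgeR adjusted p = 0.814), and since the strand setting of the counting is not stated, its share in the Itgad counts was not tested. A non-coding transcript on the opposite strand, 4931431B13Rik, shares 388 bases with Itgad and had 22 counts in all. Itgam, Itgax and Itgad are paralogs, and how the counting treated reads that fit several genes is not stated. Itgae, the alpha chain of intraepithelial T cells and some dendritic cells, had 0.470 ± 0.148 CPM in FA and 0.820 ± 0.216 CPM in DE, a log2 fold change of 0.80 (edgeR adjusted p = 0.133). The kinase gene Haspin lies within an intron of Itgae and shares 0 of its exonic bases. Itgb2, the beta chain that pairs with Itgam, Itgax, Itgad and Itgal, had 0.294, 0.399, 0.226 and 0.393 CPM in FA and 0.605, 0.459, 0.374 and 0.586 CPM in DE, with DE 5 inside the FA range. Its log2 fold change was 0.60 (95% CI -0.07 to 1.27, edgeR adjusted p = 0.239). Itgal, the alpha chain of the lymphocyte receptor LFA-1, had 1.44 ± 0.355 CPM in FA and 1.10 ± 0.200 CPM in DE, a log2 fold change of -0.39 (edgeR adjusted p = 0.314). The lymphocyte beta chain Itgb7 had 0.318 ± 0.221 and 0.456 ± 0.0852 CPM, and Itgb2l, a relative of Itgb2, had 14 counts in all libraries and was not tested.

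**Figure D2:**
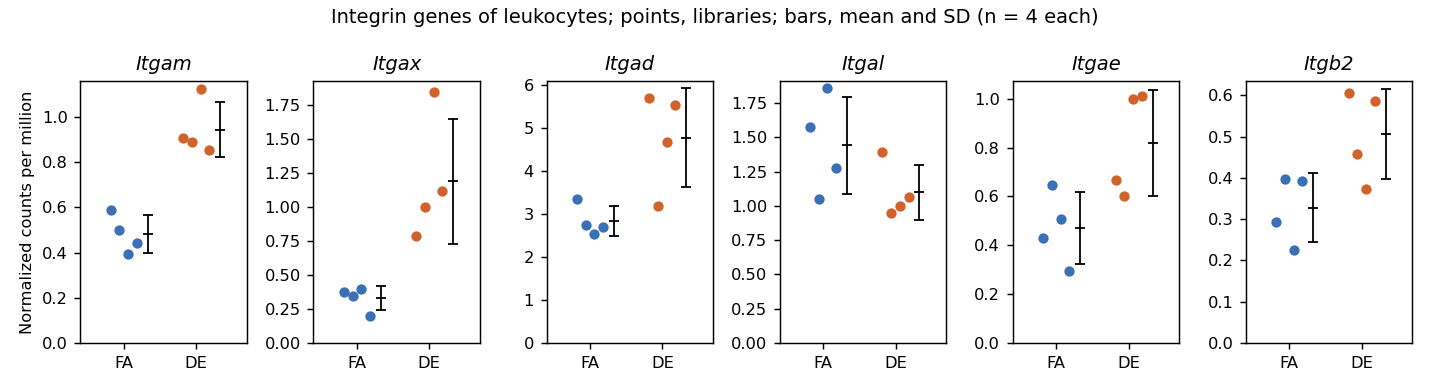
Normalized CPM (linear axes from 0) of 5 alpha chain genes and the beta chain gene of leukocyte integrins, with 1 point for each library of FA (blue) and DE (orange) and black bars at the mean with SD (n = 4 each). For Itgam and Itgax all DE points lie above all FA points, while the groups overlap for Itgad, Itgal, Itgae and Itgb2.

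Of 10 leukocyte markers 8 were tested, none was at 0, and 7 of the 8 had the higher level in DE, beside 50.5% of all genes. By edgeR 0 of the 8 were called (5.8% of all genes) and 2 had an unadjusted p below 0.05, a share near the 25.6% of all genes. Their summed level ran from 15.1 to 22.1 CPM in FA and from 18.7 to 31.0 CPM in DE. The pan-leukocyte gene Ptprc had 0.586 ± 0.151 CPM in FA and 0.848 ± 0.177 CPM in DE, and the macrophage gene Cd68 had 8.15 ± 1.81 and 12.7 ± 3.31 CPM, neither of them called (edgeR adjusted p = 0.265 and 0.0813). The macrophage receptor gene Csf1r had a log2 fold change of -0.18 (edgeR adjusted p = 0.649), and Adgre1, which codes for the macrophage antigen F4/80, was below the filter on low counts. Spi1, the gene for PU.1, had 70 counts in all and was not tested, with 0.155 ± 0.0679 CPM in FA and 0.462 ± 0.158 CPM in DE. The part of leukocyte RNA in the Itgax and Itgam values was not tested, and in these bulk samples a different number of cells of a type and a different amount of RNA per cell cannot be told apart.

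Itgb1, the beta chain shared by the laminin, collagen and fibronectin receptors, was the most abundant member per length, at 274 ± 25.2 CPM per kilobase of exon in FA and 272 ± 39.5 in DE. Its CPM values were 1119, 972, 1202 and 1176 in FA and 1202, 1014, 941 and 1287 in DE. The groups overlapped over almost their whole range, and the log2 fold change was -0.01 (SE 0.12, 95% CI -0.27 to 0.26, edgeR adjusted p = 0.974). Itgb5, a partner of Itgav in the vitronectin receptor, was at 22.7 ± 2.53 CPM per kilobase in FA and 28.7 ± 2.32 in DE. Its CPM values were 70.7, 91.9, 77.1 and 82.4 in FA and 112, 101, 104 and 91.8 in DE, so that only FA 3 reached the lowest DE library, and the log2 fold change of 0.34 (SE 0.11) was not called (edgeR adjusted p = 0.0811). Itgb3, the other common partner of Itgav and the platelet beta chain, had 6.11 ± 0.892 CPM in FA and 7.57 ± 2.01 CPM in DE. The remaining tested beta chains, Itgb4, Itgb6 and Itgb8, lay between 0.955 and 4.21 CPM in group mean and had log2 fold changes of 0.13, -0.35 and -0.25, each with an interval that included 0.

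The 3 laminin-binding alpha chains were all lower in DE, and 0 of them were called, with 1 at an unadjusted p below 0.05. Itga6, the most abundant of them per length, had 74.8, 45.2, 87.7 and 69.9 CPM in FA and 75.8, 65.7, 40.0 and 83.3 CPM in DE. The groups overlapped throughout, with a log2 fold change of -0.07 (95% CI -0.58 to 0.44, edgeR adjusted p = 0.874). Itga7, the muscle laminin receptor chain that replaces Itga5 and Itga6 as cardiomyocytes mature, had 39.7, 37.1, 37.0 and 42.0 CPM in FA and 32.7, 38.4, 33.6 and 27.8 CPM in DE. All DE libraries but DE 3 lay below the FA range, and the log2 fold change was -0.23 (SE 0.11, 95% CI -0.48 to 0.01, edgeR adjusted p = 0.213). Itga3, a receptor chain for laminins of the endothelium and epithelia, had 35.6, 35.1, 35.4 and 30.8 CPM in FA and 28.7, 24.8, 29.0 and 23.6 CPM in DE. Here the groups did not overlap, but the log2 fold change of -0.37 (SE 0.10, 95% CI -0.60 to -0.14) missed the threshold (edgeR adjusted p = 0.0627), while DESeq2 gave an adjusted p of 0.0217 for the same counts. Of 8 endothelial markers 7 were higher in DE, opposite to Itga3, with a median log2 difference of 0.27, 4 at an unadjusted p below 0.05 and 0 called by edgeR, and 0 of 2 tested epithelial markers were called, with the epithelial genes Krt5 and Esrp1 at 0 in every library.

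Among the alpha chains that recognise the RGD motif of matrix proteins, Itga5, the fibronectin receptor chain, was at 62.0 ± 3.19 CPM per kilobase in FA and 59.6 ± 9.39 in DE. Its CPM values were 313, 324, 290 and 296 in FA and 268, 334, 333 and 242 in DE. The spread was wider in DE, where the values lay on both sides of the FA range, and the log2 fold change was -0.06 (SE 0.12, edgeR adjusted p = 0.798). Itgav had 73.0 ± 13.7 CPM in FA and 64.9 ± 9.54 CPM in DE. Itga8, found on smooth muscle and fibroblasts, had 19.4, 9.22, 16.1 and 19.0 CPM in FA and 45.8, 18.6, 11.9 and 15.0 CPM in DE. Only DE 1 exceeded the FA range, and without DE 1 the log2 fold change of 0.52 became -0.08. Itga2b, the platelet chain CD41, had 4.10 ± 0.808 CPM in FA and 5.26 ± 0.209 CPM in DE (log2 fold change 0.37, edgeR adjusted p = 0.166). Platelet and megakaryocyte markers summed to 4.24 to 5.25 CPM in FA and 5.01 to 6.77 CPM in DE. Of the 4 that were tested, 3 were higher in DE and 1 lower, with a median log2 difference of 0.82. By edgeR 1 was called (5.8% of all genes) and 3 had an unadjusted p below 0.05 (25.6% of all genes), all of them higher.

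The most abundant collagen-binding chain per length, Itga1, had 90.6, 54.5, 94.0 and 76.1 CPM in FA and 95.9, 65.9, 57.8 and 75.3 CPM in DE. These values overlapped, and the log2 fold change was -0.10 (95% CI -0.51 to 0.31, edgeR adjusted p = 0.775). Itga2, Itga10 and Itga11 were less abundant, with group means between 0.757 and 6.78 CPM and log2 fold changes of -0.43, 0.26 and 0.63, and 0 of these 3 were called, with 0 at an unadjusted p below 0.05 in edgeR. Itga9, a receptor chain for tenascin and for the vascular adhesion molecule Vcam1, had 119, 91.3, 122 and 95.2 CPM in FA and 117, 89.4, 82.3 and 98.7 CPM in DE, a log2 fold change of -0.14 (SE 0.14, edgeR adjusted p = 0.536). Itga4, its close relative, had 2.77 ± 1.30 CPM in FA and 2.98 ± 1.84 CPM in DE, and was lowest in FA 3 (0.947 CPM) and highest in DE 1 (5.42 CPM).

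**Figure D3:**
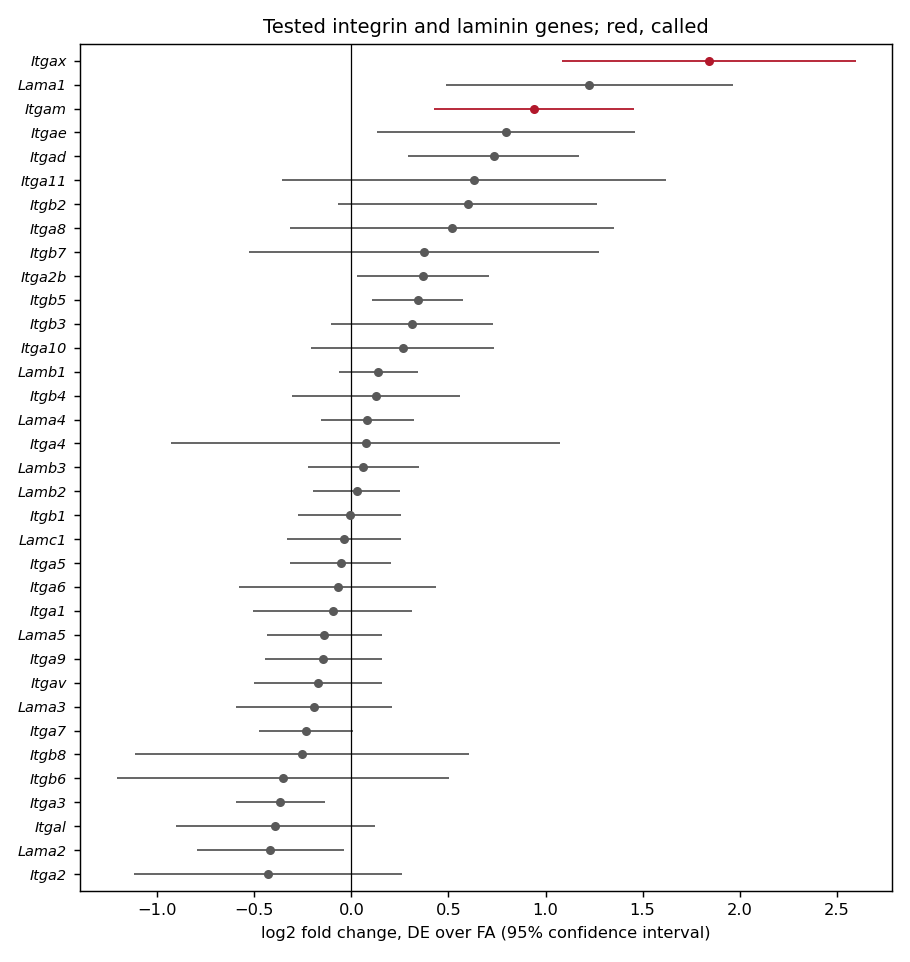
Log2 fold change, DE over FA, with its 95% confidence interval from edgeR's quasi-likelihood fit (n = 4 libraries each) for the tested integrin and laminin genes reported here, in order of size. Itgax (1.84) and Itgam (0.94) are in red as called, and the interval of Itgb1 (-0.27 to 0.26) includes 0.

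The laminin chains formed the other abundant group, and 0 of 10 tested were called. Lamc1, the gamma chain of nearly all laminins outside skin, was the second member in order of CPM per kilobase, at 74.6 ± 10.9 in FA and 72.6 ± 10.5 in DE. Its CPM values were 704, 519, 682 and 562 in FA and 699, 568, 498 and 639 in DE, which overlapped, with a log2 fold change of -0.04 (95% CI -0.33 to 0.26, edgeR adjusted p = 0.885). Lamb1, the early beta chain, had 501, 441, 494 and 519 CPM in FA and 542, 562, 491 and 558 CPM in DE. Only DE 5 lay within the FA range, and the log2 fold change was 0.14 (SE 0.09, 95% CI -0.06 to 0.34, edgeR adjusted p = 0.367). Lamb2, the later beta chain of muscle and synapses, had 233, 220, 229 and 247 CPM in FA and 245, 264, 234 and 203 CPM in DE, with a log2 fold change of 0.03 (SE 0.10, edgeR adjusted p = 0.888).

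Of the laminin alpha chains, Lama4, which belongs to the laminins of endothelium and muscle, was the most abundant per length, at 29.8 ± 3.43 CPM per kilobase in FA and 31.5 ± 2.61 in DE. It had 351, 308, 371 and 408 CPM in FA and 406, 407, 346 and 361 CPM in DE, overlapping values with a log2 fold change of 0.08 (SE 0.11, edgeR adjusted p = 0.667). Lama2, the chain of mature muscle laminin whose loss causes a congenital muscular dystrophy, had 274, 176, 251 and 245 CPM in FA and 230, 150, 142 and 186 CPM in DE. FA 3 lay below DE 1 and DE 7, and the log2 fold change of -0.42 (SE 0.17, 95% CI -0.80 to -0.04) was not called (edgeR adjusted p = 0.160). Lama5 had 145 ± 23.5 CPM in FA and 132 ± 17.4 CPM in DE. Lama1, the chain of embryonic basement membranes, was the next to last member in order of CPM per kilobase, with 10, 3, 6 and 5 counts in FA and 28, 16, 21 and 10 in DE. All DE libraries lay above the FA libraries in CPM (0.250 ± 0.0780 and 0.591 ± 0.174), and the log2 fold change of 1.23 (SE 0.34) missed the threshold (edgeR adjusted p = 0.0562). Lama3 and Lamb3, chains of epithelial laminin, had log2 fold changes of -0.19 and 0.06, at 7.71 ± 0.945 and 7.15 ± 0.607 CPM in FA. Lamc3 had 85 counts in all and did not pass the filter.

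In order of CPM per kilobase in FA the most abundant members were Itgb1, Lamc1, Itga5, Lamb1, Lamb2, Lama4 and Itgb5. The interval of 1 SD around Lamc1 (74.6 ± 10.9) touched that around Itga5 (62.0 ± 3.19), while the other neighbours in this order stood further apart than their SDs. Lama2 (14.5 ± 2.60), Itga9 (13.9 ± 2.09) and Lama5 (12.8 ± 2.06) came next and lay within their SDs of each other. The order depends on the transcript length used, since with the longest transcript in place of all exons Lamb1 stood in place 2, Lamc1 in place 3 and Itga5 in place 4. Itgb1, Lamc1, Lamb1, Lama4 and Itga5 together held 71.3% of all member counts. At the other end 11 members had fewer than 300 counts over all 8 libraries, Itgam and Itgax among them.

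Chains that can replace each other in a dimer or trimer were compared by their log2 count ratio within each library, which does not depend on scaling between libraries. Such a ratio does not remove a trend with transcript length within a library. The 4 ratios were tested over the libraries by exact permutation (two-sided), for which 0.0286 is the smallest p that 4 against 4 libraries allow. The ratio of Lama2 to Lama4 was -0.36, -0.81, -0.56 and -0.74 in FA and -0.82, -1.44, -1.28 and -0.95 in DE. Every DE library lay below every FA library, although FA 3 and DE 1 differed by only 0.01. The mean ratio was -0.62 ± 0.20 in FA and -1.12 ± 0.29 in DE, a difference of -0.51 (exact permutation p = 0.0286, adjusted over the 4 ratios 0.114), which fails the correction. Within prefix 11 this difference was -0.27 (exact permutation p = 0.133). Of 10 cardiomyocyte markers 9 were lower in DE (2 called, Myh6 and Pln), and of 8 endothelial markers 7 were higher (0 called by edgeR, 4 at an unadjusted p below 0.05). Lama2 has 16338 exonic bases and Lama4 12068. The median log2 deviation of other long transcripts, described below, was 0.31, -0.11, 0.27 and -0.02 in FA and 0.08, -0.28, -0.30 and 0.10 in DE. The part of these markers and of transcript length in this ratio was not tested. The ratio of Itga7 to Itga5 differed by -0.17 (-2.97 ± 0.13 in FA and -3.15 ± 0.11 in DE, exact permutation p = 0.114, adjusted 0.228) and that of Lamb2 to Lamb1 by -0.12 (-1.07 ± 0.05 and -1.19 ± 0.18, exact permutation p = 0.286, adjusted 0.381). The ratio of Itga7 to Itga6 differed by -0.16, with a wide spread in both groups (-0.79 ± 0.40 in FA and -0.96 ± 0.58 in DE, exact permutation p = 0.686, adjusted 0.686).

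**Figure D4:**
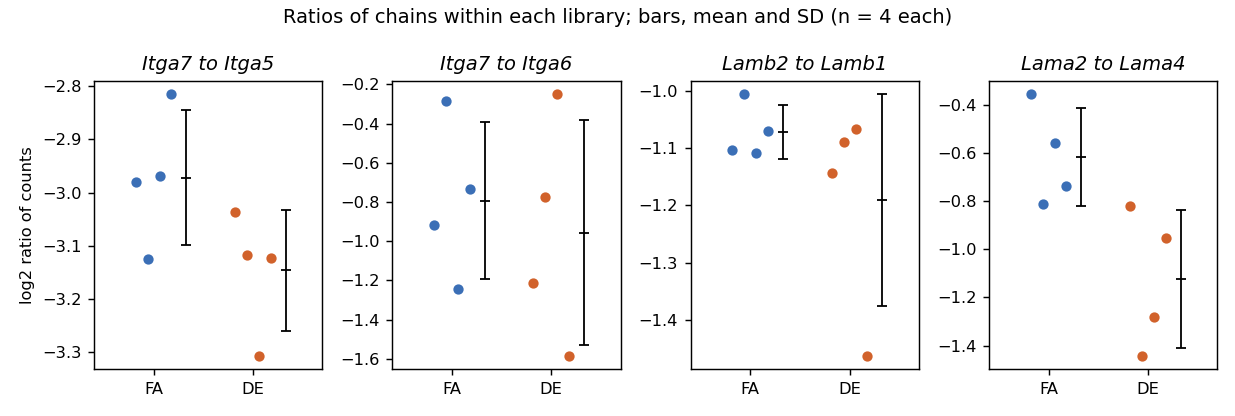
Log2 ratio of the counts of 2 chains within each library for 4 pairs of alternative chains, with 1 point for each FA (blue) and DE (orange) library and black bars at the mean with SD (n = 4 each). The vertical axes do not start at 0 and differ between panels. The groups separate only for Lama2 to Lama4, where FA 3 (-0.81) and DE 1 (-0.82) almost meet.

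Abundant members also varied together between libraries of the same exposure. FA 3 was the lowest FA library for 19 of the 36 tested members and DE 5 the lowest DE library for 18, while DE 1 was the highest DE library for 18 and FA 2 the highest FA library for 13. Over the 20 members with at least 100 counts in every library, the median log2 deviation from the mean of 8 libraries was 0.15, -0.17, 0.14 and 0.04 in FA and 0.16, -0.04, -0.21 and -0.04 in DE. Over 1375 other genes with long transcripts it was 0.31, -0.11, 0.27 and -0.02 in FA and 0.08, -0.28, -0.30 and 0.10 in DE, and genes with short transcripts deviated the other way in each library. The members have long transcripts, with a median of 5193 bases beside 3435 over all tested genes, and 11 of 36 reach the longest 10% of genes (6863 bases or more). When the length and GC trend of each library was removed by offsets, 6 of 36 members were called by edgeR, beside 11.2% of all 13851 genes in that fit, namely Itgad, Itgam, Itgax and Lama1 higher in DE and Itga3 and Itga7 lower.

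**Figure D5:**
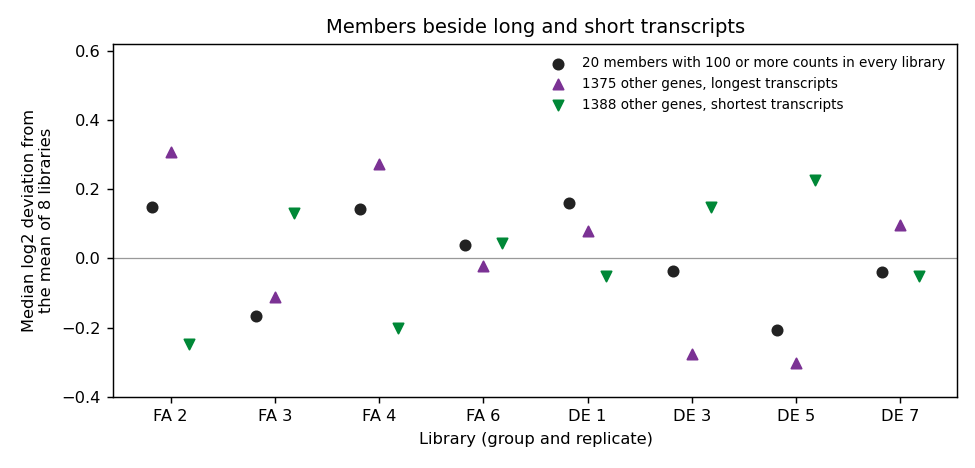
Median log2 deviation of each library from the mean of 8 libraries, over 20 abundant integrin and laminin genes (black circles), 1375 other genes with long transcripts (purple triangles up) and 1388 with short transcripts (green triangles down). The members lie below 0 in FA 3 and DE 5 and above 0 in FA 2, FA 4 and DE 1, and long transcripts lie on the same side in these 5 libraries.

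Of the proteins that couple integrins to actin and kinases, 1 of 29 tested genes was called, beside 5.8% of all genes, and 21 were higher in DE and 8 lower, with a median log2 fold change of 0.11. The called gene was Zyx, which codes for the focal adhesion protein zyxin and had 118, 131, 122 and 116 CPM in FA and 174, 221, 198 and 141 CPM in DE. The groups did not overlap, and the mean rose from 122 ± 6.73 to 184 ± 34.2 CPM (log2 fold change 0.59, SE 0.13, edgeR adjusted p = 0.0274). The call was lost without FA 2, 4 or 6 (edgeR adjusted p = 0.0909, 0.0898 and 0.0534) and without DE 3 or 5 (0.0827 and 0.0607), and within prefix 11 the log2 fold change was 0.37 (edgeR adjusted p = 0.169). The most abundant genes of the list, Tns1, Vcl and Fermt2, for tensin, vinculin and a kindlin that activates integrins, had log2 fold changes of -0.17, 0.15 and -0.05 at 727 ± 114, 452 ± 42.8 and 400 ± 20.6 CPM in FA, and edgeR called none of these 3 (adjusted p = 0.551, 0.488 and 0.773). Talin 1 (Tln1), the integrin linked kinase (Ilk) and focal adhesion kinase (Ptk2) had log2 fold changes of -0.07, 0.06 and 0.02.

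Among the partners of laminin in the basement membrane and at the muscle membrane, 2 of 28 tested genes were called, a share near the 5.8% of all genes, with 14 higher in DE and 14 lower and a median log2 fold change of 0.02. At an unadjusted p below 0.05 there were 12 of the 28, beside 25.6% of all genes. Smoc2, for a matrix protein that binds calcium, had 14.3, 12.6, 13.5 and 18.7 CPM in FA and 24.5, 21.7, 19.5 and 21.4 CPM in DE. It rose by 0.56 on the log2 scale (SE 0.14, edgeR adjusted p = 0.0380) with no overlap. Frem2, for a basement membrane protein of the Fraser complex, had 47.3, 28.7, 48.6 and 39.9 CPM in FA and 28.8, 20.2, 21.3 and 27.2 CPM in DE. It fell by 0.76 on the log2 scale (SE 0.17, edgeR adjusted p = 0.0323), with DE 1 just above FA 3. The Smoc2 call was lost without FA 2, 3 or 4 (edgeR adjusted p = 0.119, 0.0832 and 0.127) and without DE 1, 3 or 7 (0.0593, 0.0949 and 0.0577). The Frem2 call was lost without FA 2, 4 or 6 (edgeR adjusted p = 0.107, 0.0988 and 0.0510) and without DE 3 or 5 (0.0955 and 0.0706), and within prefix 11 neither was called, with log2 fold changes of 0.63 for Smoc2 and -0.56 for Frem2 (edgeR adjusted p = 0.0773 and 0.172). Over all 17 alternatives these ran from 0.49 to 0.69 for Smoc2 and from -0.90 to -0.53 for Frem2. The type IV collagen chains Col4a1 and Col4a2 and the perlecan gene Hspg2 were the most abundant, at 1451 ± 214, 1045 ± 120 and 1187 ± 302 CPM in FA, with log2 fold changes of 0.43, 0.40 and 0.12 (edgeR adjusted p = 0.0998, 0.0910 and 0.708). The dystroglycan gene Dag1, the other laminin receptor of muscle, had 369 ± 53.8 CPM in FA and 269 ± 48.9 CPM in DE (log2 fold change -0.46, edgeR adjusted p = 0.0859), and the dystrophin gene Dmd 204 ± 55.3 and 120 ± 40.0 CPM (-0.76, edgeR adjusted p = 0.0901).

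Of 23 tested genes for matrix and cell surface ligands of integrins, 20 had the higher level in DE and 3 the lower, beside 50.5% of all genes higher, and the median log2 difference was 0.49, beside 0.00 over all genes. Of these ligand genes 2 were called (5.8% of all genes) and 9 had an unadjusted p below 0.05 (25.6% of all genes). Col1a1, a chain of type I collagen, had 609, 385, 490 and 497 CPM in FA and 1174, 975, 780 and 887 CPM in DE. It rose by 0.95 on the log2 scale (SE 0.16, edgeR adjusted p = 0.00874), without overlap, and was called in each edgeR fit without 1 library and within prefix 11. Emilin1, for an elastic fibre protein, had 40.4, 34.1, 44.6 and 54.1 CPM in FA and 77.8, 82.2, 54.2 and 60.3 CPM in DE. It rose by 0.67 on the log2 scale (SE 0.17, edgeR adjusted p = 0.0411), a call lost without FA 2, 3 or 4 (adjusted p = 0.126, 0.0845 and 0.107), without DE 1 or 3 (0.0612 and 0.123) and within prefix 11 (0.0797, with a log2 fold change of 0.67). The most abundant ligand genes, Col3a1, Postn and Fn1, for type III collagen, periostin and fibronectin, had log2 fold changes of 0.67, 0.70 and 0.43 at 1014 ± 241, 728 ± 212 and 659 ± 155 CPM in FA, with edgeR adjusted p of 0.0677, 0.0703 and 0.200. Of 8 fibroblast markers, 8 were higher in DE and 2 were called (Col1a1 and Dcn), and Col1a1, Col1a2 and Col3a1 stand in both lists. Whether the ligand levels reflect more fibroblasts among the cells was not tested.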

How the data were processed

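RNA was measured in NCMs of 8 male neonates, 4 FA and 4 DE, grouped by the treatment in their labels. The methods state n = 3 for each exposure, and all 8 libraries were used here. The authors used Tophat for alignment to mm10 (reference transcriptome Ensembl v67), marked duplicates with Picard without removing them, realigned with GATK and counted fragments with featureCounts, and deposited raw counts for each Entrez gene. The versions of the aligner and the counter, strand setting, counting annotation and handling of multimapping reads are not given in the sources used here. Duplicates left in the counts are not independent molecules.

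Symbols for 25275 of 27179 genes and gene coordinates came from a RefSeq table on GRCm38.p6, and lengths from GENCODE M21. edgeR 4.0.16 in R 4.3.3 kept 14966 genes (filterByExpr, minimum 10 counts), scaled by TMM and tested exposure with glmQLFit and glmQLFTest, with Benjamini-Hochberg adjustment over all tested genes. SE and 95% intervals were derived from the F statistic. The code was tested on simulated data. Genes given with every library were those called, the most abundant of each role by CPM per kilobase, and the chains of the ratios, and others near the threshold were added after their values were seen. From the other lists, called genes and the 3 highest in CPM were named, and Tln1, Ilk, Ptk2, Dag1 and Dmd were added after their values were seen. The values of 1 member and of 1 called marker gene are not reported here. The members and lists were chosen with earlier results of these data known. Alternatives were other scaling factors, no filter, DESeq2 1.42.0, the likelihood ratio test, a built-in 25% difference, prefix 11 only, leaving out each library and 0.5 added to counts in ratios. Length and GC offsets (5 spline degrees of freedom, 92.5% of tested genes) and the same genes without offsets were added after the data were seen.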

Additional observations from a re-analysis of the deposited data

Results flagged for a closer look

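In 3 of 82 groups of 4 libraries examined over the members, 1 library stood far from the other 3 by Dixon's criterion, which chance passes in about 1 in 20 groups. Itga3 stood at 30.8 CPM in FA 6, while the other FA libraries had 35.1 to 35.6 CPM. Itga2b stood at 5.30 CPM in FA 4, a level within the DE range, beside 3.61 to 3.79 CPM in the other FA libraries. Itgb4 stood at 4.57 CPM in FA 2, beside 3.49 to 3.67 CPM in the other FA libraries.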

How the results depend on the processing

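The number of members called (2) was 5 with library totals alone, 1 without a filter, 4 with DESeq2, 5 with the likelihood ratio test, 1 with the 25% difference built in, 1 within prefix 11 and 6 with length and GC offsets, and 1 to 2 with each library left out. Itgax was called in 16 of 17 alternatives and Itgam in 6, and 7 members were called in at least 1 fit (Itga3, Itga7, Itgad, Itgam, Itgax, Itgb5 and Lama1). Adhesion complex calls (1) were 3 with library totals, 0 with the 25% difference built in, 0 within prefix 11 and 0 to 2 with a library left out. Basement membrane calls (2) were 8, 7, 0, 0 and 8 with DESeq2, the likelihood ratio test, the built-in difference, prefix 11 and offsets, and 0 to 3 with a library left out. Ligand calls (2) were 7, 7, 1 and 6 with DESeq2, the likelihood ratio test, the built-in difference and offsets, and 1 to 4 with a library left out. Calls over all genes (868) were 1633, 1603, 114, 260 and 1546 with DESeq2, the likelihood ratio test, the built-in difference, prefix 11 and offsets, and 237 to 1168 with a library left out. The share of these calls that was higher in DE was 61.8%, but 78.7% with library totals and 51.6% with offsets. The cause of these shifts was not tested.

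The sign of the log2 fold change turned for some members, none of which was called in any fit. With library totals it was 0.0335 for Lamc1, 0.0180 for Itga5, 0.000175 for Itga6 and 0.0612 for Itgb1. Within prefix 11 it was 0.11 for Lamc1, 0.27 for Itgb8, 0.00523 for Itga2, 0.12 for Itga1, 0.19 for Itga6, 0.00244 for Lama5, 0.15 for Itgb1, -0.0565 for Lamb2 and 0.00865 for Itga9. With offsets it was 0.0743 for Lamc1, 0.18 for Itga1, 0.0235 for Itgav, 0.0197 for Itgb1 and -0.00165 for Lamb2. With each library left out it ran from -0.12 to 0.0429 for Lamc1, -0.435 to 0.31 for Itga4, -0.23 to 0.11 for Itga6, -0.0930 to 0.0639 for Itgb1, -0.0116 to 0.11 for Lamb3, -0.0779 to 0.735 for Itga8, -0.00632 to 0.28 for Itgb4, -0.0311 to 0.0886 for Lamb2, -0.25 to 0.00455 for Itga1 and -0.12 to 0.0211 for Itga5, and the ratio of Itga7 to Itga6 ran from -0.40 to 0.0479. The difference in the Lama2 to Lama4 ratio ran from -0.61 to -0.40 with a library left out. No paired analysis was possible because the groups share only replicate number 3.

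Counts limit the precision for Itgax (4 to 74 in a library) and Itgam (7 to 45).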
